A study of Saccharomyces cerevisiae with 12 samples.

Results

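The genes described here encode 43 proteins of the yeast mitochondrial ribosome. They were chosen by identifier as MRP1, the 34 genes with MRPL symbols and the 8 genes with MRPS symbols, and they are 43 of the 7127 features counted in each library. RNA was sequenced from cultures of the budding yeast Saccharomyces cerevisiae in 4 groups of 3 biological replicates: H3i in YPD, H3i in YPGal, WT in YPD and WT in YPGal. H3i (DGS200.1) was derived from strain YEF473A; its HHT1 gene is deleted and its HHT2 gene, the remaining source of histone H3, is driven by the Gal1 promoter. Galactose (YPGal) turns this promoter on and glucose (YPD) turns it off, so the move to YPD is meant to stop new H3 synthesis in H3i alone. WT carries both H3 genes under their own promoters and is labelled YEF4734A. All cultures were grown in YPGal at first. The length of growth in YPD was not given in the sources used here, and neither H3 protein nor Rap1 binding was measured in these libraries.

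Mitochondrial ribosomes make the few proteins encoded by mitochondrial DNA, nearly all of them core subunits of the respiratory chain and the ATP synthase. Their protein components, apart from Var1, are encoded in the nucleus, made in the cytosol and imported, so the nuclear genes have to supply both subunits of the ribosome. Glucose represses respiration in budding yeast, whereas on galactose cells respire more. Puf3 is an RNA-binding protein of budding yeast that recognises a short motif in the 3′ untranslated region of many mRNAs for mitochondrial proteins, and the Hap2/3/4/5 complex activates genes of respiration.

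By the RefSeq family names, 34 of the 43 proteins belong to the large subunit and 9 to the small subunit. MRP1, grouped with the large subunit when the genes were chosen, carries the family name mS43 and was counted here with the small subunit. Of the 43, 28 belong to families shared with bacterial ribosomes and 15 to families specific to mitochondria. The genes lie on 12 chromosomes. Only MRPL44 has an intron in its coding region, and 2 coding regions overlap another RefSeq gene, MRPL19 and MRPL51.

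The sequence shared by these genes was the Puf3 motif. TGTANATA was found on the sense strand within 250 bases after the stop codon in 43 of 43 genes (100%), against 910 of 5989 RefSeq genes with such a window (15.2%). The 43 windows held 56 matches, and 12 genes had more than 1. The first base of a match lay 8 to 238 bases after the stop codon, with a median of 57.5. The form TGTAAATA made up 24 of the matches, TGTATATA 18, TGTACATA 13 and TGTAGATA 1. A match is a description of the sequence and not evidence that the protein binds there. One match, the nearest to the stop codon, is shown for MRP1, for the 5 genes with the largest decrease in H3i after the move to YPD and for the 5 with the smallest, so that both ends of the response can be compared. Each line gives 30 bases of the sense strand from 5′ to 3′, as DNA, from the RefSeq R64 genome, which is the sacCer3 assembly of the files. Capitals mark the match nearest to the stop codon. The MRPL19 line also holds a further match in lower case, which starts 95 bases after the stop codon.
MRPL51 (YPR100W, chrXVI:730250-730279, plus strand): ataattatactTGTATATAtaatttggggc
MRPL8 (YJL063C, chrX:315714-315743, minus strand): gtgtattccctTGTAAATAtatagatgaca
MRPL33 (YMR286W, chrXIII:842249-842278, plus strand): tgacttatataTGTATATAgtattattttt
MRPL37 (YBR268W, chrII:741638-741667, plus strand): tttggtatcctTGTAAATAaatatgtgtgt
MRPS9 (YBR146W, chrII:536224-536253, plus strand): ttcgttattccTGTAAATAaagttatatgt
MRP1 (YDR347W, chrIV:1170183-1170212, plus strand): ttggtagtctcTGTAAATAtataaagtcaa
MRPL20 (YKR085C, chrXI:599049-599078, minus strand): aataacaatcgTGTAAATActactctataa
MRPL19 (YNL185C, chrXIV:292088-292117, minus strand): ctgatctattcTGTAAATAtgtatataagt
MRPL50 (YNR022C, chrXIV:669719-669748, minus strand): gcgtacaatctTGTATATAggcaacatcgc
MRPS28 (YDR337W, chrIV:1147197-1147226, plus strand): gtagaaaagctTGTAAATAagaaaccgtca
MRPS8 (YMR158W, chrXIII:572761-572790, plus strand): tatacggaccaTGTAAATAataatattata
The forms TGTAAATA and TGTATATA both occur at either end of the list.

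**Figure D1:**
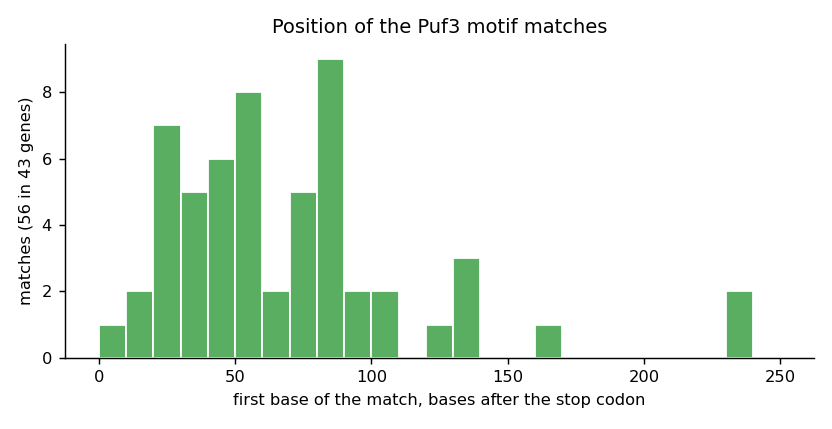
Position of the 56 Puf3 motif matches of the 43 genes: the x axis gives the number of bases from the stop codon to the first base of the match, in bins of 10 bases, and the y axis the number of matches. The median match starts at 57.5 bases and the farthest at 238 bases.

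The libraries differed in depth and quality by replicate number. The gene total per library was 2176277 to 2525223 for replicate 1, 8649749 to 11628815 for replicate 3 and 40950610 to 52278567 for replicate 2. HHT1 stood at 0 to 3.34 CPM (counts scaled to a gene total of 1e6) in the 6 H3i libraries and at 634 to 1329 CPM in the 6 WT libraries. HHT2 stood at 14.7 to 30.3 CPM in H3i YPD and at 2284 to 4353 CPM in H3i YPGal, as the labels state. Replicate 2 lacked counts for many genes. Of the mitochondrial ribosomal protein genes at 50 CPM or more in the mean of replicates 1 and 3, the share under 0.1 of that level in replicate 2 was 7 of 31 in H3i YPD (22.6%), 22 of 41 in H3i YPGal (53.7%), 20 of 32 in WT YPD (62.5%) and 20 of 41 in WT YPGal (48.8%). Over all nuclear genes at that level it was 22%, 47.3%, 42.4% and 46% in the same order of groups, so genes at large lost counts too, and the loss was smallest in H3i YPD in both counts. Tests were therefore made on replicates 1 and 3 (n = 2 per group, 8 libraries), with the fits of all 12 libraries beside them. Entries that name no gene took 38.7% and 33.7% of the counts in H3i YPD (replicates 1 and 3) and 22% to 28.1% in the other 6 of these 8 libraries, so that this measure moved with H3i YPD; its part in the results was not tested. Both WT libraries of replicate 3 also stood apart from the other WT libraries. HIS3 had 21.9 and 22.7 CPM in this pair and no count in any of the other 10 libraries. LEU2 had no count in this pair and 78.5 to 625 CPM in the other libraries. MF(ALPHA)1, which encodes the mating pheromone of alpha cells, had 2325 and 2464 CPM in this pair, against at most 0.792 CPM in the remaining WT libraries. In H3i it ranged from 0.067 to 105 CPM, with 53.8 and 105 CPM in YPD replicates 1 and 3. MFA1 had 1.30 and 1.97 CPM in this pair, against 69.6 to 173 CPM in the others. The WT groups of replicates 1 and 3 therefore hold libraries that differ in these genes, and the reason was not tested. Counts over the 43 genes that rest on WT are given with and without both WT libraries of replicate 3.

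**Figure D2:**
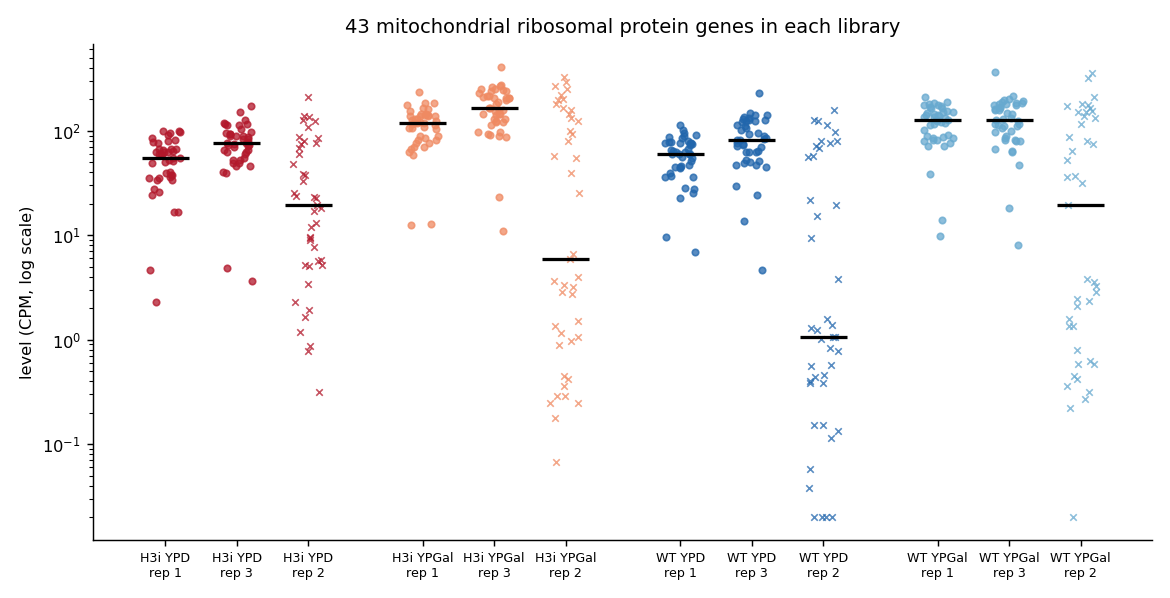
Level of each of the 43 genes in each of the 12 libraries, in CPM on a log axis; a point is a gene, a black bar the median of a library, and crosses mark replicate 2. Levels under 0.02 CPM (5 of 516 values) are drawn at 0.02. In replicates 1 and 3 the YPD libraries of both strains sit below the YPGal libraries of the same strain and replicate, while replicate 2 spreads over several orders of magnitude.

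Taken as a group, the 43 genes made up less of the mRNA in YPD than in YPGal in both strains. They took 0.234% and 0.338% of gene counts in H3i YPD and 0.496% and 0.741% in H3i YPGal (replicates 1 and 3). In WT they took 0.257% and 0.375% in YPD and 0.528% and 0.570% in YPGal. The YPD and YPGal values did not overlap in either strain, whereas H3i and WT overlapped in each medium. The median gene stood at 55.1 and 75.8 CPM in H3i YPD, 119 and 166 CPM in H3i YPGal, 60.1 and 81.5 CPM in WT YPD and 128 and 127 CPM in WT YPGal. These are shares of the counted mRNA, and a change in them cannot be told apart from a change in the rest of the transcriptome.

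Levels between genes were compared per length, as CPM per kilobase of coding sequence. The median gene stood at 99.5 CPM per kb in H3i YPD (range 8.41 to 258), 207 in H3i YPGal (28.2 to 558), 105 in WT YPD (13.9 to 280) and 184 in WT YPGal (21.4 to 473). MRPL39, a bL33 protein of the large subunit, had the highest mean over the 8 libraries at 378 CPM per kb, followed by MRPS16, the small subunit's bS16, at 344 and MRPL33, a uL30 protein, at 305. MRPL39 averaged 228 ± 96.7 CPM per kb in H3i YPD, 558 ± 73.6 in H3i YPGal, 255 ± 53.6 in WT YPD and 473 ± 103 in WT YPGal (SD, n = 2). MRPS16 averaged 180 ± 108, 487 ± 280, 256 ± 117 and 453 ± 92.2 CPM per kb in H3i YPD, H3i YPGal, WT YPD and WT YPGal, so these 2 genes did not differ beyond their spread in any group. The lowest means were those of MRPL38 at 18.3, MRPL51 at 29.1 and MRPS5 at 88.7 CPM per kb. MRPL38, a uL14 protein, averaged 9.84 ± 1.67 CPM per kb in H3i YPD, 28.2 ± 2.64 in H3i YPGal, 13.9 ± 3.86 in WT YPD and 21.4 ± 3.26 in WT YPGal. MRPL51 and MRPL38 were among the 3 lowest in each of the 8 libraries, and the third lowest by the mean, MRPS5 (uS5), stood at 67.5 ± 15.9, 117 ± 7.20, 53.7 ± 19.7 and 117 ± 41.9 CPM per kb in the same order of groups. MRPL51 shares 323 of its 423 coding bases with YPR099C on the opposite strand, and no source used here says whether the counting took account of strand, so that reads of that stretch may have been left out or assigned to either gene. YPR099C itself stood at 0.919 and 1.55 CPM in H3i YPD, where MRPL51 stood at 2.30 and 4.82 CPM. In the other groups YPR099C stood at 0 to 0.116 CPM. Its part in the estimates of MRPL51 was not tested.

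In H3i, nearly all mitochondrial ribosomal protein genes fell after the move to YPD. In the edgeR fit 41 of 43 were called lower in H3i YPD than in H3i YPGal and 0 higher, at an adjusted p under 0.05, where 22.2% of all 6354 genes tested were lower and 21.4% higher. The median log2 fold change of the 43 was −1.60 (range −2.68 to −0.55), against 0.03 for all genes tested. Both subunits moved: 33 of 34 large-subunit genes (median −1.57) and 8 of 9 small-subunit genes (median −1.60) were lower. So did both kinds of protein, with 26 of 28 in families shared with bacteria (median −1.67) and 15 of 15 in families specific to mitochondria (median −1.46). All 43 were lower in YPD within replicate 1 and within replicate 3, as were 28.5% of all genes. The levels of the groups did not overlap for 37 of 43, against 19.3% of all genes that were lower without overlap. The 6 that overlapped were MRPL19, MRPL20, MRPL32, MRPL50, MRPS8 and MRPS28.

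The largest decreases were in MRPL51, MRPL8, MRPL33 and MRPL37 of the large subunit and MRPS9 of the small subunit. MRPL8, the bL17 protein, stood at 50.1 and 49.0 CPM in H3i YPD, against 236 and 205 CPM in H3i YPGal (replicates 1 and 3). Both YPD libraries were far below both YPGal libraries, a log2 fold change of −2.52 ± 0.27 (SE; edgeR adjusted p = 0.00159). MRPL33 stood at 16.5 and 39.0 CPM in H3i YPD, against 88.5 and 143 CPM in H3i YPGal, with no overlap (−2.51 ± 0.25, edgeR adjusted p = 0.00154). MRPL37, the mitochondria-specific mL54, stood at 16.5 and 52.7 CPM in H3i YPD, against 89.3 and 188 CPM in H3i YPGal. It too did not overlap (−2.43 ± 0.30, edgeR adjusted p = 0.00201). MRPS9, a uS9 protein, which in bacteria reaches the tRNA in the P site, stood at 51.0 and 115 CPM in H3i YPD, against 175 and 412 CPM in H3i YPGal. Its replicates differed in level by over 2-fold, but both YPD values were below both YPGal values (−2.20 ± 0.22, edgeR adjusted p = 0.00154). MRPL51, the mitochondria-specific mL43, rests on few reads: 5 and 56 counts in H3i YPD, against 31 and 232 counts in H3i YPGal. Its decrease of −2.68 ± 0.48 had the largest estimate and a wide error (edgeR adjusted p = 0.00434). MRPL44 (mL53), sixth in this order, stood at 24.4 and 39.9 CPM in H3i YPD, against 62.2 and 155 CPM in H3i YPGal (−2.08 ± 0.26, edgeR adjusted p = 0.00201).

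MRP1, a small-subunit protein with no bacterial counterpart by its family name, was in the middle of the range. It stood at 85.0 and 117 CPM in H3i YPD, against 186 and 242 CPM in H3i YPGal, without overlap (−1.48 ± 0.24, edgeR adjusted p = 0.00336). The 3 genes with the highest level per length also fell, MRPL33 as given above, MRPL39 by 1.72 and MRPS16 by 1.83 on the log2 scale. MRPL38, the lowest per length, had 10 and 42 counts in H3i YPD, against 30 and 110 counts in H3i YPGal (−1.91 ± 0.50, edgeR adjusted p = 0.0180).

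At the other end were 5 genes with small or uncertain decreases. MRPS8, a uS8 protein, stood at 59.7 and 83.8 CPM in H3i YPD, against 69.3 and 91.7 CPM in H3i YPGal, a log2 fold change of −0.55 ± 0.28 (edgeR adjusted p = 0.151). MRPL19, a uL11 protein, which in bacteria belongs to the site where the translation factors that use GTP bind, stood at 54.7 and 69.4 CPM in H3i YPD, against 58.4 and 98.1 CPM in H3i YPGal (−0.70 ± 0.25, edgeR adjusted p = 0.0541). Neither passed the test, and in both the levels of the groups overlapped. MRPL19 shares 113 of its 477 coding bases with YNL184C on the same strand, so its counts may miss those reads. MRPS28 (uS15) stood at 96.0 and 174 CPM in H3i YPD, against 119 and 206 CPM in H3i YPGal (−0.66 ± 0.21, edgeR adjusted p = 0.0371). MRPL50 (bL9) stood at 98.8 and 118 CPM in H3i YPD, against 107 and 157 CPM in H3i YPGal (−0.67 ± 0.21, edgeR adjusted p = 0.0354). MRPL20 (mL58) stood at 97.4 and 150 CPM in H3i YPD, against 124 and 217 CPM in H3i YPGal (−0.84 ± 0.20, edgeR adjusted p = 0.0125). These 3 passed the test although their levels in CPM overlapped between the media. The fit compares libraries within a replicate number and scales them by TMM factors. Scaled by library totals, none of the 3 was called. MRPS28 was then at −0.27 (edgeR adjusted p = 0.298), MRPL50 at −0.28 (edgeR adjusted p = 0.313) and MRPL20 at −0.44 (edgeR adjusted p = 0.106). Each of the 3 lost its call when H3i YPGal replicate 1, H3i YPGal replicate 3 or H3i YPD replicate 1 was left out, and so did MRPL38 and MRPL4, whereas 27 of the 41 called genes were called whichever of the 8 libraries was left out.

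The order of the genes by size of response recurred between replicates in H3i. Across the 43 genes the log2 ratio of YPD to YPGal in replicate 1 correlated with that in replicate 3 at r = 0.801 (Spearman rho = 0.741); no library is shared between them, but genes of 1 library are not independent. The decrease was not ordered by level per length (r = 0.00832, rho = −0.251) or by coding length (r = 0.172, rho = 0.199). On the CPM scale, with no factor for composition, the median log2 ratio was −1.14 in replicate 1 and −1.16 in replicate 3. Scaling by library totals in the fit moved the median of all genes by 0.394, and 33 of the 43 were then called lower (median −1.21), with 0 higher, where 13.9% of all genes were lower. With all 12 libraries 0 of the 43 were lower in the fit with the kit term (median −1.44; 0.0624% of all genes) and 7 were lower in the fit with a replicate block (median −1.08; 4.96% of all genes). Within replicate 2 alone, 21 of 43 were lower.

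**Figure D3:**
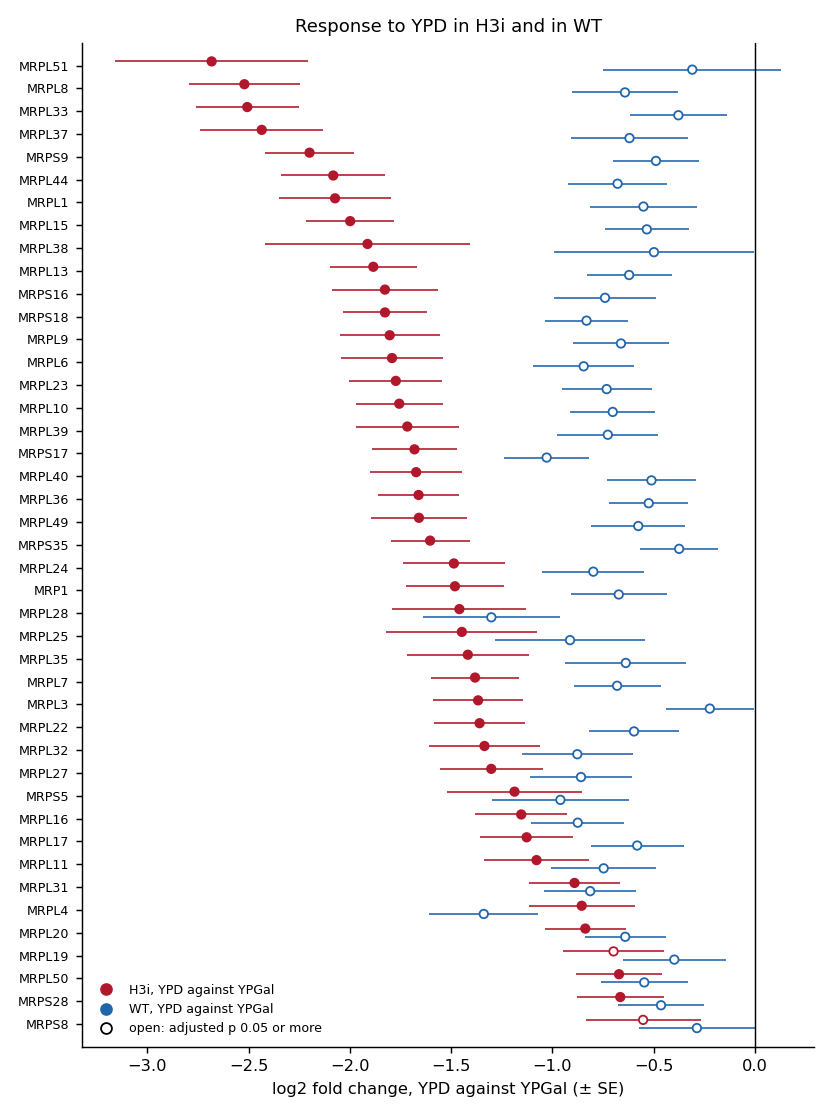
Response of each of the 43 genes to YPD: the x axis gives the log2 fold change of YPD against YPGal with its standard error, in H3i (red) and in WT (blue), from the 8-library edgeR fit, and the genes run down the page from the lowest to the highest value in H3i. Filled points passed an adjusted p of 0.05. All 86 estimates are below 0, the H3i estimates from −2.68 to −0.55 and the WT estimates from −1.34 to −0.22, and MRPL4 is the gene whose WT estimate is the lower one.

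In WT, the same genes stood lower in YPD by a smaller amount, which no single gene carried past the test. edgeR called 0 of 43 lower and 0 higher in WT YPD against WT YPGal, where 0.677% of all genes were lower and 0.0944% higher; 30 of the 43 had an unadjusted p under 0.05, as had 20% of all genes, and DESeq2 called 6 lower, with 5.49% of all genes. The median log2 fold change was −0.64 (range −1.34 to −0.22), against 0.01 for all genes tested, and it was −0.64 for large-subunit and −0.67 for small-subunit genes. All 43 were lower in YPD within replicate 1 and within replicate 3, as were 43.8% of all genes, and 37 of 43 did not overlap, against 23.9% of all genes that were lower without overlap. MRPL4, a uL29 protein, which in bacteria lies at the exit of the peptide tunnel, had the lowest WT estimate. It stood at 59.7 and 29.6 CPM in WT YPD, against 177 and 79.9 CPM in WT YPGal (−1.34 ± 0.27, edgeR adjusted p = 0.0838). In H3i the same gene stood at 91.0 and 72.8 CPM in YPD, against 140 and 92.4 CPM in YPGal (−0.85 ± 0.26, edgeR adjusted p = 0.0319).

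The WT response differed between the replicates. Its median log2 ratio in CPM was −0.99 in replicate 1 and −0.61 in replicate 3, and across the 43 genes the ratios of these replicates correlated at r = 0.224 (rho = 0.149), against r = 0.801 in H3i. The difference between these correlations was not tested. Without both WT libraries of replicate 3, edgeR called 3 of the 43 lower in WT (median −0.75), with 5.61% of all genes. With all 12 libraries and the kit term it called 0 (median −0.72), with 0.0624% of all genes. The sizes of the responses in H3i and WT were not ordered alike across the 43 genes (r = −0.167, rho = −0.150).

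In YPD, many of the 43 genes were lower in H3i than in WT, and how many depended on the scaling and on the kit term. With TMM factors edgeR called 23 of 43 lower in H3i YPD than in WT YPD and 0 higher, where 23.7% of all genes were lower and 26% higher. The median log2 fold change was −0.76 (range −2.28 to 0.37), against 0.10 for all genes tested, with 19 of 34 large-subunit and 4 of 9 small-subunit genes lower. Scaled by library totals, which moved the median of all genes by 0.602, 10 were lower, with 12.6% of all genes, and 4 higher, with 42.9% (median −0.16): the 4 were MRPL4 at 0.97, MRPL19 at 0.86, MRPL31 at 0.79 and MRPL50 at 0.64. In CPM, 8 genes were lower in both H3i YPD libraries than in both WT YPD libraries and 8 were higher, against 15.3% and 52.5% of all genes. Without the kit term 12 were lower, with 11.7% of all genes (median −0.77), and without both WT libraries of replicate 3 there were 20, with 20.4% (median −0.86). With all 12 libraries 0 were lower with the kit term (median −0.61; 0.0624% of all genes) and 1 was lower with a replicate block (median −0.08; 5.77%).

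The genes that stood lowest in H3i relative to WT in YPD were MRPL51, MRPL33, MRPS9, MRPL37 and MRPL44; this comparison and the response of H3i both use the H3i YPD libraries. MRPL33 stood at 16.5 and 39.0 CPM in H3i YPD, against 45.0 and 101 CPM in WT YPD (−1.98 ± 0.25, edgeR adjusted p = 0.000978). MRPS9 stood at 51.0 and 115 CPM in H3i YPD, against 114 and 228 CPM in WT YPD (−1.67 ± 0.22, edgeR adjusted p = 0.00105). In both genes the H3i value was below the WT value of the same replicate, but in MRPS9 the groups overlapped. MRPL51 had 5 and 56 counts in H3i YPD, against 22 and 127 counts in WT YPD (−2.28 ± 0.48, edgeR adjusted p = 0.00632). MRPL37 differed by −1.53 ± 0.30 (edgeR adjusted p = 0.00481) and MRPL44 by −1.51 ± 0.26 (edgeR adjusted p = 0.00257). Each of these 5 genes was below WT in CPM in both replicates, and each was called whichever library was left out, as were 14 of the 23 genes called. The highest values were those of MRPL4, MRPL19, MRPL31, MRPL28 and MRPL50, none of them called. MRPL4 stood at 91.0 and 72.8 CPM in H3i YPD and 59.7 and 29.6 CPM in WT YPD, with no overlap in CPM but a log2 fold change of 0.37 ± 0.27 after TMM (edgeR adjusted p = 0.273). MRPL19 stood at 54.7 and 69.4 CPM in H3i YPD and 25.1 and 45.4 CPM in WT YPD, with 0.25 ± 0.25 after TMM (edgeR adjusted p = 0.426). MRPL28 (mL40) stood at 55.1 and 46.3 CPM in H3i YPD and 36.3 and 24.4 CPM in WT YPD, with 0.18 ± 0.33 after TMM (edgeR adjusted p = 0.667), and MRPL31 (mL60) at 66.2 and 76.8 CPM in H3i YPD and 35.9 and 47.2 CPM in WT YPD, with 0.18 ± 0.23 (edgeR adjusted p = 0.518). MRPL50 stood at 98.8 and 118 CPM in H3i YPD and 66.2 and 72.0 CPM in WT YPD, with 0.04 ± 0.21 (edgeR adjusted p = 0.894). In CPM all 5 were higher in both H3i libraries than in both WT libraries, without overlap.

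In YPGal, where HHT2 of H3i is expressed, none of the 43 genes differed between the strains in the test. edgeR called 0 lower and 0 higher in H3i YPGal against WT YPGal, as for all genes (0% and 0%); 0 of the 43 had an unadjusted p under 0.05, and DESeq2 called 0. The median log2 fold change was 0.10 (range −0.21 to 0.55) with TMM factors and 0.14 with library totals. Without both WT libraries of replicate 3 the median was −0.06, so its sign rests on those libraries; within replicate 1 the median log2 ratio in CPM was −0.09 and within replicate 3 it was 0.41. No gene was lower without overlap in CPM, against 3.79% of all genes, and 3 were higher without overlap, against 7.57%.

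The difference between the responses of the strains was tested as an interaction. In this test 18 of 43 genes had a lower response to YPD in H3i than in WT and 0 a higher one, where 14.5% of all genes were lower and 13.1% higher. The median difference in log2 fold change was −0.95 (range −2.37 to 0.48), against 0.07 for all genes tested, with 15 of 34 large-subunit and 3 of 9 small-subunit genes called. With TMM factors the estimate was more negative in H3i for 42 of 43, and for 3025 of all 6354 genes. MRPL4 was the exception (0.48 ± 0.37, edgeR adjusted p = 0.357). Scaled by library totals, more of the 43 had an estimate above 0, while their median was −0.39. Among them were MRPL31 at 0.48, MRPL50 at 0.44 and MRPL20 at 0.36, none of them called. With TMM factors the lowest were MRPL51 at −2.37 ± 0.64 (edgeR adjusted p = 0.0305), MRPL33 at −2.13 ± 0.34 (0.00845), MRPL8 at −1.88 ± 0.37 (0.0120), MRPL37 at −1.82 ± 0.41 (0.0178) and MRPS9 at −1.71 ± 0.30 (0.00958). MRPL31 at −0.08, MRPL50 at −0.12, MRPL28 at −0.16 and MRPL20 at −0.20 were close to equal responses, each with an error of 0.28 to 0.46. MRPL33 shows the pattern in all groups: it stood at 16.5 and 39.0 CPM in H3i YPD, 88.5 and 143 CPM in H3i YPGal, 45.0 and 101 CPM in WT YPD and 76.8 and 127 CPM in WT YPGal. Its H3i YPD values were the lowest of each replicate.

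These calls of a difference rest on few libraries and on the scaling. Leaving out 1 of the 8 libraries left 3 to 17 of the 43 called, with 3 when WT YPD replicate 1 was left out (4.7% of all genes) and 4 when H3i YPGal replicate 1 (4.43%) or replicate 3 (7.1%) was. Of the libraries of replicate 3, omitting the WT YPD one gave 8 (11.1%), the WT YPGal one 9 (15.2%) and the H3i YPD one 17 (13%). Of those of replicate 1, omitting the H3i YPD one gave 10 (9.62%) and the WT YPGal one 14 (10.2%). In the fits with the fewest genes called, the share of the 43 rests on few genes and was not tested against that of all genes. Of the 18, only MRPL33 and MRPS9 were called whichever library was left out; MRPL8 was called in 7 of these 8 fits, MRPL37 and MRPL44 in 5 each and MRPL51 in 1. Scaling by library totals moved the median of all genes by 0.556 and left 4 called, MRPL8, MRPL33, MRPL37 and MRPS9 (median −0.39), with 7.32% of all genes. Without both WT libraries of replicate 3 there were 7 (median −0.79), with 15% of all genes, a share close to that of the 43. Without the kit term there were 0, with 0.0157% of all genes, and likewise 0 in the fits of 12 libraries with the kit term (0.0156%) and with a replicate block (2.45%).

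**Figure D4:**
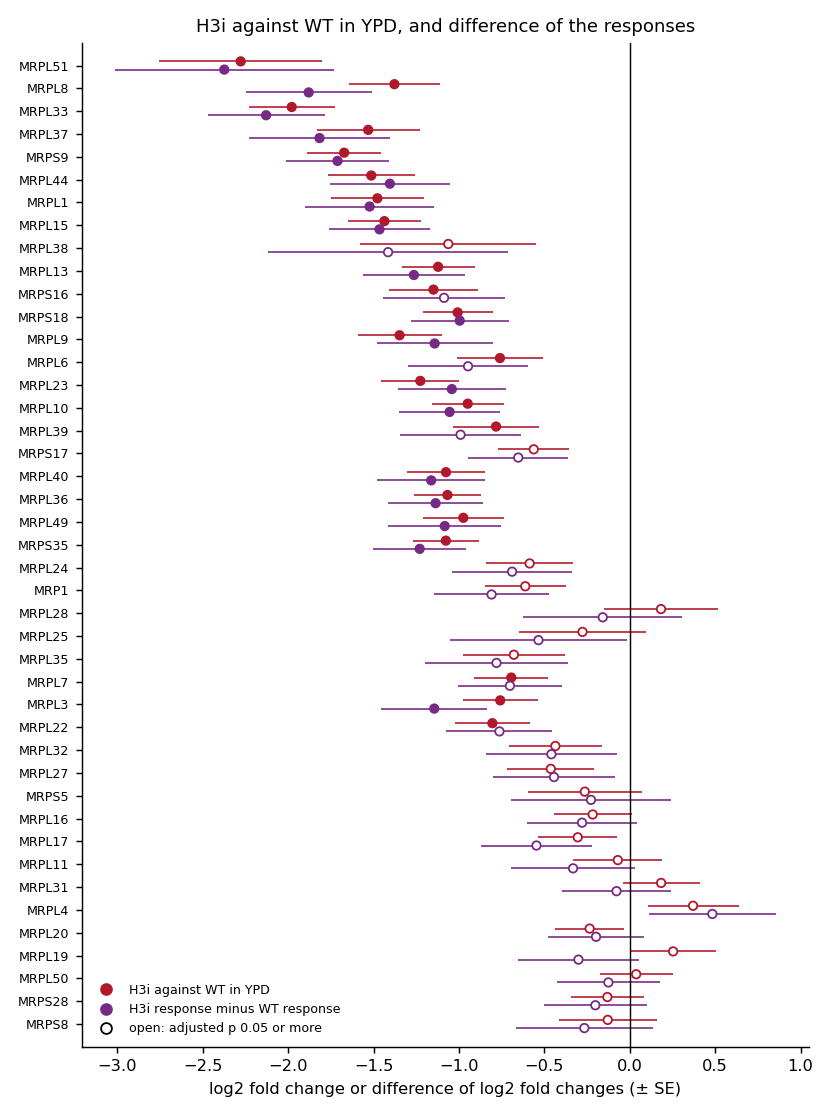
H3i against WT in YPD (red) and H3i response minus WT response (purple) for each of the 43 genes: the x axis gives the log2 value with its standard error from the 8-library edgeR fit, and the genes run down the page as in the plot of responses. Filled points passed an adjusted p of 0.05. Both comparisons contain the H3i YPD libraries; MRPL51 has the lowest estimates, −2.28 and −2.37, and MRPL4 the highest, 0.37 and 0.48.

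Other genes of mitochondrial translation were read from lists chosen by gene name. Of the 35 other mitochondrial ribosomal proteins, 29 were lower in H3i YPD than in H3i YPGal and 0 higher (median −1.52, against a median of −0.68 in WT). In H3i YPD against WT YPD 16 of them were lower and 1, EHD3, higher (0.72 ± 0.24, edgeR adjusted p = 0.0361), beside 23.7% and 26% of all genes. A lower response in H3i than in WT was called for 10, beside 14.5% of all genes. The medians of these 2 comparisons were −0.64 and −0.79. Without both WT libraries of replicate 3 they were −0.76 and −0.63, and fewer of the 35 were called in each. Scaled by library totals, 6 of the 35 were lower and 3 higher in H3i YPD against WT YPD (median −0.05). Of all 6354 genes, 799 were then lower and 2723 higher. The difference of the responses was called lower for 3 of the 35 and higher for 2 under that scaling (median −0.23), beside 465 and 1491 of all genes. In the response to YPD, H3i changed most in the genes named next, with TMM factors. The lowest in H3i YPD against H3i YPGal were RSM26 at −2.64 ± 0.20 (edgeR adjusted p = 0.000744) and MRPS12 at −2.28 ± 0.23 (0.00153), both of the small subunit. The highest called were IMG1 at −0.98 ± 0.26 (0.0176) and MRP17 at −0.83 ± 0.22 (0.0195). VAR1, the ribosomal protein gene on mitochondrial DNA, had 0 counts in the 8 libraries, where 3 counts correspond to 0.258 to 1.38 CPM. The libraries were made from poly(A) RNA, which mitochondrial mRNAs of yeast lack, so its level was not measured.

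Genes that act with the ribosome gave mixed results. Of 15 translation factors and assembly factors, 4 were lower in H3i YPD than in H3i YPGal and 0 higher (median −0.52), beside the 22.2% of all genes that were lower. The lowest were TUF1, the mitochondrial elongation factor Tu, at −2.08 ± 0.35 (edgeR adjusted p = 0.00372) and AIM23, an initiation factor, at −1.06 ± 0.29 (0.0215); MSS116, an RNA helicase, fell by 0.99 and RMD9 by 0.74. Scaled by library totals 1 of the 15 was lower and 1 higher (median −0.13), beside 881 and 2027 of all 6354 genes. With TMM factors, 1 of 13 mitochondrial aminoacyl-tRNA synthetases was lower in H3i YPD than in H3i YPGal and 1 higher (median 0.03, against −0.54 in WT). MSK1, for lysine, was the lower one at −1.40 ± 0.29 (edgeR adjusted p = 0.00700), and MST1, for threonine, was the higher one at 0.998 ± 0.24 (0.0135). MST1 stood at 239 and 250 CPM in H3i YPD, 78.5 and 107 CPM in H3i YPGal, 51.9 and 41.0 CPM in WT YPD and 78.0 and 70.8 CPM in WT YPGal, so that its H3i YPD libraries were above all others. In YPD 6 of the 13 synthetases were higher in H3i than in WT and 0 lower (median 0.67), beside the 26% of all genes that were higher. Scaled by library totals there were 11 higher (median 1.26), beside 42.9% of all genes, and without both WT libraries of replicate 3 there were 4 (median 0.87). Of 14 translational activators of mitochondrial mRNAs, 5 were lower in H3i YPD than in H3i YPGal and 0 higher (median −0.26). Scaled by library totals 2 were lower and 1 higher, beside 881 and 2027 of all 6354 genes, and the sign of the median turned (0.13). The 5 included CBP3 at −1.99 ± 0.23 (edgeR adjusted p = 0.00174) and AEP2 at −1.55 ± 0.25 (0.00326), and the smallest decreases called were CBP6 at −1.07 and MSS51 at −0.82. Neither of the 2 genes of mitochondrial transcription, RPO41 and MTF1, was called.

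Nuclear genes of oxidative phosphorylation and genes of the cytosolic ribosome were read beside the 43 genes. Of 34 nuclear genes of oxidative phosphorylation, 33 were lower in H3i YPD than in H3i YPGal (median −2.59), with a median of −1.47 in WT, so both medians were lower than those of the 43 genes. They ranged from ATP15, a subunit of the ATP synthase, at −3.49 ± 0.50 (edgeR adjusted p = 0.00244) and SDH2, of succinate dehydrogenase, at −3.36 ± 0.60 (0.00441) to QCR2 at −2.13 ± 0.36 and SDH1 at −1.91 ± 0.54 among those called. Of 137 cytosolic ribosomal protein genes, 131 were lower in H3i YPD than in H3i YPGal (median −1.97), but in WT their median was 0.84, in the opposite direction to the mitochondrial ribosomal proteins. The lowest were RPS22B at −2.98 ± 0.33 and RPS21A at −2.91 ± 0.34, and the smallest decreases called were RPL41B at −1.13 ± 0.24 and RPL15B at −1.09 ± 0.30. Each of these 4 has a close paralog, so reads shared between copies leave their counts uncertain. The difference between the responses of the strains had a median of −2.84 for cytosolic ribosomal protein genes, −1.17 for oxidative phosphorylation and −0.95 for the 43 genes. The test of that difference called 131 of 137, 1 of 34 and 18 of the 43 genes lower, in the same order, beside 14.5% of all genes. Without both WT libraries of replicate 3 it called 130, 0 and 7, with medians of −3.10, −0.83 and −0.79. The lists were not tested against each other.

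**Figure D5:**
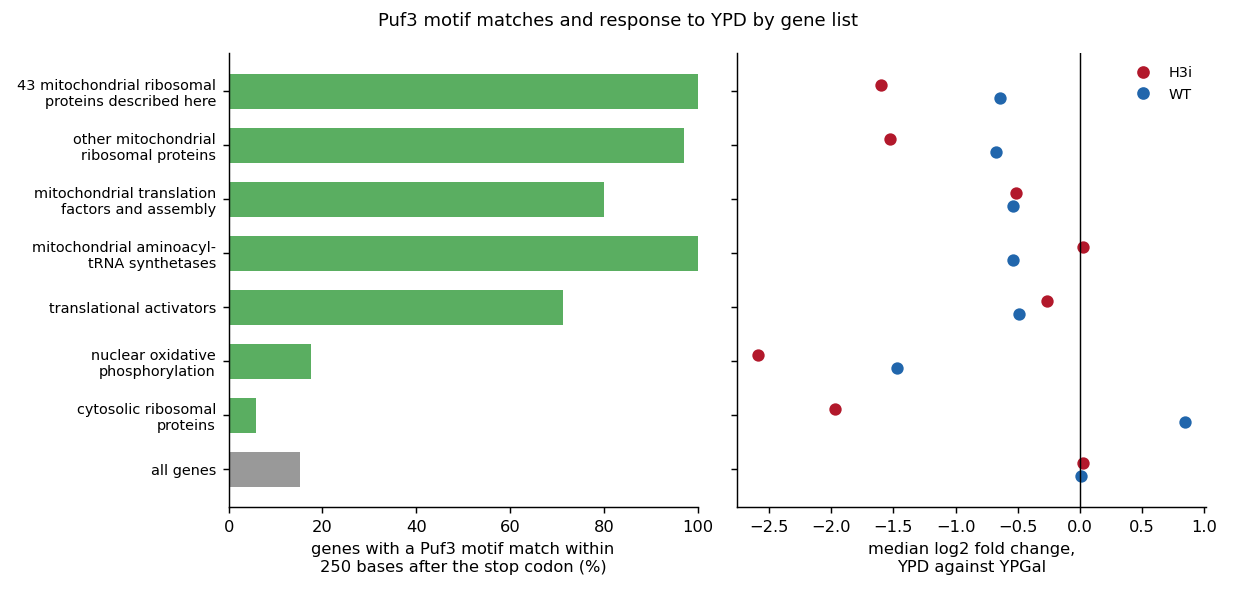
Left, the share of genes in each list with a Puf3 motif match within 250 bases after the stop codon (%, all RefSeq genes in grey); right, the median log2 fold change of YPD against YPGal in H3i (red) and WT (blue) from the 8-library fit. The 43 genes and the aminoacyl-tRNA synthetases both have a match in every gene, with H3i medians of −1.60 and 0.03.

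Lists with the Puf3 motif in most genes did not share 1 response in H3i. A match was present in 34 of the 35 other mitochondrial ribosomal proteins (97.1%), in 13 of 13 aminoacyl-tRNA synthetases (100%), in 12 of 15 translation and assembly factors (80%) and in 10 of 14 translational activators (71.4%), against 6 of 34 genes of oxidative phosphorylation (17.6%) and 8 of 137 cytosolic ribosomal proteins (5.84%). In WT the median responses of the lists rich in matches lay close together, from −0.68 for the other mitochondrial ribosomal proteins to −0.49 for the activators, whereas in H3i they ran from −1.52 for the other mitochondrial ribosomal proteins to 0.03 for the synthetases. Over all tested genes with a match, the 43 left out, the median response was −0.28 in H3i and −0.18 in WT (858 genes), against 0.03 and 0.02 for 4943 genes without one. In H3i, 32.2% of the genes with a match were lower and 15.4% higher, against 21.7% and 21.8% of the genes without.

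In H3i, PUF3 itself did not follow the 43 genes, whereas in WT its estimate was below 0, as theirs were. It stood at 57.4 and 61.6 CPM in H3i YPD, 45.1 and 43.1 CPM in H3i YPGal, 16.9 and 26.4 CPM in WT YPD and 63.0 and 59.5 CPM in WT YPGal. WT YPD held the lowest values, with no overlap with any other group. The log2 fold change of YPD against YPGal was 0.04 ± 0.29 in H3i (edgeR adjusted p = 0.926) and −1.34 ± 0.30 in WT (edgeR adjusted p = 0.0984), and the difference between them was 1.37 ± 0.41 (edgeR adjusted p = 0.0423). That call was lost whichever of the 8 libraries was left out (edgeR adjusted p = 0.0561 to 0.172). HAP4, the activating subunit of the Hap2/3/4/5 complex, stood at 179 and 213 CPM in H3i YPD, 628 and 426 CPM in H3i YPGal, 194 and 253 CPM in WT YPD and 625 and 251 CPM in WT YPGal. The H3i media did not overlap (−1.77 ± 0.41, edgeR adjusted p = 0.0107), although the call was lost when replicate 1 of H3i YPGal (0.0645) or of H3i YPD (0.0572) was left out, and the WT media overlapped (−0.71 ± 0.40, edgeR adjusted p = 0.364). With HAP4, 3 of the 10 regulators listed were lower in H3i YPD than in H3i YPGal and 0 higher (median −0.22), beside 22.2% and 21.4% of all genes. The others called were HAP2 at −1.42 ± 0.33 (edgeR adjusted p = 0.0113) and HAP5 at −1.20 ± 0.34 (edgeR adjusted p = 0.0228). Scaled by library totals 2 of the 10 were lower and 0 higher, beside 881 and 2027 of all 6354 genes, and the sign of the median turned (0.17).

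The promoters were searched on both strands from 250 bases before to 50 after the start of the coding region. The Rap1 motif ACCCNNACA was found in 0 of 43 genes, against 170 of 5989 RefSeq genes (2.84%). Motifs of the general regulatory factors Reb1 (TTACCCG) and Abf1 were found in 6 genes each (14%), against 7.1% and 6.11% of all genes. The Hap2/3/4/5 motif CCAAT was found in 16 (37.2%, against 43.3%), the rapid growth element AATTTT in 17 (39.5%, against 51.7%) and the PAC motif GATGAG in 8 (18.6%, against 20.4%). The median response in H3i was −1.72 for the 6 genes with a Reb1 match and −1.49 for those without, and −1.91 for the 8 with a PAC match and −1.46 for those without. These are matches of letters in a fixed window; a gene without one may still be bound, and the medians were not tested.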

How the data were processed

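Poly(A) RNA-seq libraries of 12 cultures were analysed. Per the labels' protocols, replicates 1 and 2 were extracted with MagMax and made with TruSeq Stranded mRNA, and replicate 3 with Trizol and glass beads and TruSeq Stranded mRNA LT. The values are raw read counts per gene, deposited by the authors. The tools named in the submitters' processing notes are HISAT2, SAMtools, Picard, FastQC and DESeq2, without versions, and the build is sacCer3; the counting tool and strand setting were not given in the sources used here. All 5 entries per table that name no gene were left out; they took 66.3% to 74.5% of counts in replicate 2, 38.7% and 33.7% in the H3i YPD libraries of replicates 1 and 3, and 22% to 28.1% in the other 6.

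The fit used edgeR 4.0.16 under R 4.3.3 (quasi-likelihood, TMM, filterByExpr) for replicates 1 and 3 of all groups, with the 4 groups and a kit term: 6354 genes, 3 residual degrees of freedom, common biological coefficient of variation 0.273. Adjusted p-values are Benjamini-Hochberg values over all these genes, with calls under 0.05. The kit term is also the replicate block. Equal numbers were taken to pair libraries. The 18 same-number pairs correlated at r = 0.368 to 0.812 in their deviations from the group means, and pairs of different number at r = −0.752 to 0.574. All 12 libraries correlated best with one of their own number. The kits and the loss of counts in replicate 2 also go with the number, so these values cannot show that cultures were paired. Ratios within a replicate used log2 of CPM plus 0.5. Alternatives used 12 libraries (6408 genes, 7 residual degrees of freedom, coefficient 1.13), other scalings and filters, DESeq2 1.42.0, and libraries left out. Pooled over all genes, counts of replicates 1 and 3 differed beyond counting error; this was not tested for single genes, and counts were as low as 5 (MRPL51) and 10 (MRPL38). The code was tested on simulated data.

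The genes, the lists and the choice to leave out replicate 2 were made with earlier results of these data known. Genes named are MRP1, the 5 lowest and 5 highest members of each comparison with calls, members not called where few, the 3 highest and lowest per length, the 2 lowest and 2 highest called genes of each list, PUF3, HAP4 and VAR1. MRPL44 entered as one of the lowest against WT. Genes said to overlap another gene, HIS3, LEU2, MF(ALPHA)1 and MFA1 were named after their values were seen. Subunits, coordinates and sequences are from RefSeq R64.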

Additional observations from a re-analysis of the deposited data

Results flagged for a closer look

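A difference between the strains in the response to YPD was found by the interaction test for 18 of the 43 genes, all lower in H3i. Of all genes, 14.5% were lower and 13.1% higher. Scaled by library totals 4 of the 43 were lower, with 7.32% of all genes, and without the kit term 0, with 0.0157%. Without both WT libraries of replicate 3 the median of the 43 was −0.79, against −0.95 in the 8-library fit. Among the genes named, the differences were −2.37 for MRPL51, −2.13 for MRPL33, −1.88 for MRPL8, −1.82 for MRPL37, −1.71 for MRPS9 and −1.40 for MRPL44. PUF3 differed in the other direction, by 1.37, and lost its call whichever of the 8 libraries was left out. Of the genes just named, MRPL33 and MRPS9 were called whichever of the 8 libraries was left out, whereas MRPL51 lost its call in most of these fits.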

How the results depend on the processing

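With replicate 2 included (12 libraries), the kit term gave 0 lower of the 43 genes for the response in H3i, for H3i against WT in YPD and for the difference of the responses. The replicate block on 12 libraries gave 7, 1 and 0; under it MRP1 (1.64), MRPL8 (0.20), MRPL50 (0.39) and MRPL31 (0.59) changed sign in H3i, and MRPL8 changed sign against WT in YPD (1.20) and in the difference (0.58). The cause was not tested. On 8 libraries with no replicate block, 12 were lower against WT in YPD and 0 in the difference. With library totals there were 10 lower and 4 higher against WT in YPD, and 4 lower in the difference; the split of all calls moved to 69.7% higher for the response in H3i (49.2% with TMM), 77.3% for H3i against WT in YPD (52.3%) and 76.2% for the difference (47.6%). For the response in WT, DESeq2 called 6 lower, a fit of only the groups compared 5 and a fit without both WT libraries of replicate 3 called 3; the last gave 7 in the difference. Leaving out 1 of the 8 libraries gave 29 to 41 lower for the response in H3i, 0 to 4 for WT, 16 to 26 for H3i against WT in YPD and 3 to 17 for the difference. The lowest of these came without H3i YPGal replicate 3 for H3i (29) and without WT YPD replicate 1 for the difference (3), which also fell to 4 without H3i YPGal replicate 1 or 3, 8 when WT YPD replicate 3 was left out, 9 for WT YPGal replicate 3 and 10 for H3i YPD replicate 1; for WT the highest, 4, came without WT YPGal replicate 3. Of the genes called, 27 of 41, 14 of 23 and 2 of 18 were called in all 8 of these fits for the response in H3i, H3i against WT in YPD and the difference. Where an arm kept 1 library, it was assumed to vary like the others. RLE size factors and no filter on low counts kept the count of lower genes at 41, 0, 23, 0 and 18 in the 5 comparisons. The difference could not be fitted on fewer than the 4 groups.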
